A study of Mus musculus with 4 samples.

Results

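Transcripts of 10 genes that mark blood and lymphatic endothelium were measured in CD45+ cells sorted from the mouse dura mater. The genes were *Prox1*, *Pdpn*, *Cdh5*, *Pecam1*, *Cldn5*, *Tek*, *Tie1*, *Emcn*, *Plvap*, and *Egfl7*. The list was chosen with earlier results of these data known, and its rows were taken by gene name. All 10 occurred among the 55401 genes of the tables and among the 19806 genes tested. CD45 is the leukocyte surface phosphatase encoded by *Ptprc*, and the sort was meant to collect immune cells, so RNA of endothelial genes is not what the gate was set for. Whether this RNA came from endothelial cells in the sort, from free RNA, or from leukocytes that use some of these genes was not tested.

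Both groups were wild-type male C57BL/6J mice that received 2 μl of an adeno-associated virus into the cisterna magna, the CSF space below the cerebellum, at 4 wk of age. AAV-mVEGF-C drives mouse VEGF-C, the growth factor of lymphatic vessels. AAV-CTRL drives a secreted VEGFR-3 fragment fused to an immunoglobulin, a fragment that leaves VEGF-C unbound. Each group had 2 libraries, and each library came from the pooled dural cells of 10 to 12 mice, so the spread between libraries is the spread between pools. After perfusion with PBS, the dura was digested and stained with antibodies that also included CD31, podoplanin, and LYVE-1. LECs were taken from the CD45-negative cells. The study's methods do not say whether cells positive for CD31 or podoplanin were kept out of the CD45+ gate, and these proteins are the products of *Pecam1* and *Pdpn*.

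Endothelial cells line blood and lymphatic vessels and are joined by VE-cadherin, claudins, and PECAM-1. Lymphatic identity is set by the transcription factor PROX1, and LECs also display podoplanin. Angiopoietins act on the receptor TIE2, encoded by *Tek*, which works together with TIE1 to keep vessels stable. Several of these genes are not restricted to endothelium. *Pecam1* is also active in leukocytes and platelets, *Pdpn* in fibroblasts and some macrophages, and *Tek*, *Emcn*, and *Egfl7* in blood stem and progenitor cells.

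On GRCm38, with the gene models of GENCODE M21, *Prox1* lies at chr1:190118035-190170714, *Pdpn* at chr4:143267431-143299564, and *Cdh5* at chr8:104101625-104144511. *Pecam1* occupies chr11:106654217-106750628, and *Cldn5*, a short gene, occupies chr16:18776847-18778262. The Tie receptor genes share a chromosome, with *Tek* at chr4:94739289-94874976 and *Tie1* at chr4:118471191-118490061. *Emcn* is found at chr3:137341067-137432185, *Plvap* at chr8:71497765-71511752, and *Egfl7* at chr2:26580014-26593120. For *Egfl7* alone, the identifier version in the deposited data differed from that in GENCODE M21, so the counted gene model may differ. All 10 are annotated as protein coding.

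The gene starts of the Tie receptors are shown because this ligand-receptor system is represented by both of its receptors among the 10 genes. Each window is a RefSeq sequence on GRCm38.p6 from 250 bases before to 50 bases after the gene start, read on the gene's strand. Capitals mark AGGAAG or its reverse complement CTTCCT, a form of the core bound by ETS factors, the family to which the endothelial factor ERG belongs.
*Tek*, chr4:94739039-94739338, plus strand: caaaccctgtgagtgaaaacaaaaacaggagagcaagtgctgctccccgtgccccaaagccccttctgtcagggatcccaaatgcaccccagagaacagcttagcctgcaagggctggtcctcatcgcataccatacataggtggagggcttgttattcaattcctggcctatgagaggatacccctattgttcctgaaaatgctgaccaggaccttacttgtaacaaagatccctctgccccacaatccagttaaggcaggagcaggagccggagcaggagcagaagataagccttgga
*Tie1*, chr4:118489800-118490099, minus strand: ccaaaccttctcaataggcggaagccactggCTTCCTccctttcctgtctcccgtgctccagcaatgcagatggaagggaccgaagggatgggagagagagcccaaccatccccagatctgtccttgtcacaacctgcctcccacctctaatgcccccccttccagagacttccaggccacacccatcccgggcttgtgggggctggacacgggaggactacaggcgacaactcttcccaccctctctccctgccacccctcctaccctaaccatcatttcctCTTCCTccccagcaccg
The *Tie1* window held 2 matches, 1 on each side of the start, and the *Tek* window held 0. A window was given for 7 of the 10 genes, with more than 1 start for some, and 4 of these 10 windows held a match. Among all 32851 promoter windows of this length, 35.4% held one. The matches describe these letters and do not show binding.

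*Egfl7* is also the host gene of miR-126, the best-known endothelial microRNA, and its mature 3p strand is shown because the host transcript was measured here. The RefSeq sequence lies at chr2:26591402-26591423 on the plus strand of GRCm38.p6, inside *Egfl7*, and capitals mark the seed, bases 2 to 8.
mmu-miR-126a-3p: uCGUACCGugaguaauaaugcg
The hairpin genes *Mir126a* and *Mir126b* were listed at 0 reads in each of the 4 libraries. A count of 0 allows up to 3 reads, or 0.0646 to 0.0922 CPM (reads per 1000000 reads assigned to genes) depending on the library. The kit makes libraries from total RNA fragments and is not a small RNA method, so the *Egfl7* reads give the level of the host transcript.

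The libraries held 32520709 to 46409700 reads assigned to genes. AAV-CTRL 1 was the largest library but had the fewest detected genes, 20993 against 29230 to 37535 in the others, and the changes of the members and lists are given with and without each AAV-CTRL library, and without an AAV-mVEGF-C library where that moved them by more than 1.5 times. Leukocyte identity was clear: *Ptprc* reached 191 to 215 TPM (a share of transcripts, scaled for gene length and to a sum of 1000000) in the 4 libraries. The median log2 fold change of the 13 leukocyte genes examined was 0.03 (0.13 without AAV-CTRL 1, -0.06 without AAV-CTRL 2, 0.10 without AAV-mVEGF-C 1, and -0.04 without AAV-mVEGF-C 2).

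The endothelial genes were detected in all 4 libraries, at levels far below *Ptprc*. Per gene length, *Pecam1* was highest, with a mean of 15.1 TPM and a range of 10.8 to 20.9. It equaled 5.38% to 9.71% of the *Ptprc* TPM in the same library. *Egfl7*, which encodes a secreted protein of the vessel wall, followed with a mean of 2.22 TPM (1.63 to 3.14). *Cdh5*, the gene for VE-cadherin and the most specific junction gene of the list, averaged 1.56 TPM (1.2 to 2.34), or 0.627% to 1.11% of *Ptprc*. *Pdpn* averaged 1.24 TPM (0.446 to 2.58), and *Plvap*, which forms the diaphragms of fenestrated capillaries and caveolae, averaged 1.09 TPM (0.681 to 1.86).

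The other 5 genes had means under 1 TPM. *Tie1* averaged 0.407 TPM (0.31 to 0.528), *Emcn*, a sialomucin of veins and capillaries, 0.399 TPM (0.232 to 0.755), and *Tek* 0.287 TPM (0.19 to 0.411). *Cldn5*, the main claudin of tight endothelial barriers, averaged 0.181 TPM (0.072 to 0.4), and *Prox1* was lowest at 0.103 TPM (0.071 to 0.161). Of the 9 neighboring pairs in this order, the ranges over libraries did not overlap in 2, *Pecam1* above *Egfl7* and *Plvap* above *Tie1*. Compared within each library, *Egfl7* was also above *Cdh5*, and *Tek* above *Cldn5*, in 4 of 4 libraries. The order of the other 5 pairs held in 2 or 3 of the 4 libraries.

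*Prox1*, the lymphatic master regulator, had 15 and 13 reads in AAV-CTRL 1 and 2, and 39 and 26 reads in AAV-mVEGF-C 1 and 2. These counts equal 0.323, 0.39, 1.02, and 0.799 CPM. Both AAV-mVEGF-C libraries were above both AAV-CTRL libraries, and *Prox1* was the only member of the list with this pattern. The 95% Wilson interval of AAV-CTRL 2, 0.228 to 0.667 CPM, overlapped that of AAV-mVEGF-C 2, 0.546 to 1.17 CPM. The intervals of AAV-CTRL 1, 0.196 to 0.533 CPM, and of AAV-mVEGF-C 1, 0.75 to 1.4 CPM, did not overlap those of either library of the other group. In edgeR's quasi-likelihood test the log2 fold change was 1.34 with a standard error of 0.95 (unadjusted p = 0.207, adjusted p = 0.999), and the difference did not pass the test. It was 1.26 without AAV-CTRL 1 and 1.43 without AAV-CTRL 2. With the TPM values it was 0.42 on the log2(TPM + 0.1) scale and 0.08 on the log2(TPM + 1) scale, which compresses the change of so low a gene, and over all alternatives it ranged from 0.08 to 1.48. Restricting the edgeR test to genes with at least 10 reads in every library gave an unadjusted p of 0.042, which did not pass adjustment over all genes. In that fit 1 of 9 members was under 0.05, against 3.39% of all genes. No other alternative gave *Prox1* an unadjusted p under 0.05.

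*Pdpn*, which encodes the podoplanin used to stain LECs, went another way. It had 47 and 192 reads in AAV-CTRL 1 and 2, and 76 and 90 reads in AAV-mVEGF-C 1 and 2, or 1.01, 5.76, 2.00, and 2.77 CPM. AAV-CTRL 1 was lowest and AAV-CTRL 2 highest, so the AAV-mVEGF-C libraries fell between the controls. The Wilson intervals of the 2 controls, 0.762 to 1.35 and 5 to 6.63 CPM, did not overlap. These intervals treat reads as independent and cover counting error only. What set the spread of *Pdpn* between control pools was not tested. Its log2 fold change was -0.47 with a standard error of 0.79 (edgeR, unadjusted p = 0.573, adjusted p = 0.999). Without AAV-CTRL 2 this value became 1.18, and without AAV-CTRL 1 it became -1.22. It was -0.20 without AAV-mVEGF-C 1 and -0.77 without AAV-mVEGF-C 2. With every library kept it was -0.06 with a block for same-numbered libraries, -0.07 with that block crossed, and 0.06 with limma-voom.

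Among the junction genes, *Cdh5* had 367 and 426 reads in AAV-CTRL and 277 and 231 reads in AAV-mVEGF-C. In CPM these were 7.91 and 12.8 against 7.28 and 7.1, so both AAV-mVEGF-C libraries were lower, with AAV-mVEGF-C 1 close to AAV-CTRL 1. The log2 fold change was -0.52 with a standard error of 0.30 (edgeR, unadjusted p = 0.139, adjusted p = 0.999). Without AAV-CTRL 2 it was -0.20, and without AAV-CTRL 1 it was -0.78. The Wilson intervals of AAV-CTRL 1, 7.14 to 8.76 CPM, and AAV-mVEGF-C 1, 6.47 to 8.19 CPM, overlapped.

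*Pecam1* gave the largest counts, 2109 and 1775 reads in AAV-CTRL and 1647 and 1315 reads in AAV-mVEGF-C. Its CPM values of 45.4 and 53.2 stood against 43.3 and 40.4, which were lower in both AAV-mVEGF-C libraries by a small margin. The log2 fold change was -0.24 with a standard error of 0.16, the smallest error of the 10 genes (edgeR, unadjusted p = 0.18, adjusted p = 0.999). With the TPM values the difference was wider, 20.9 and 16.1 TPM against 10.8 and 12.7 TPM, and limma gave a log2 fold change of -0.61 on the log2(TPM + 1) scale (unadjusted p = 0.034, adjusted p = 0.837). That value did not pass adjustment. In the same limma fit 62.2% of all genes were below 0, and 4.55% had an unadjusted p under 0.05. For *Pecam1*, the change from reads was -0.30 without AAV-CTRL 1 and -0.18 without AAV-CTRL 2, and the values of all alternatives, TPM included, ranged from -0.65 to -0.18.

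*Cldn5* was near the lower end of what these libraries resolve. It had 7 and 27 reads in AAV-CTRL and 9 and 11 reads in AAV-mVEGF-C, or 0.151, 0.81, 0.237, and 0.338 CPM. As for *Pdpn*, the AAV-mVEGF-C libraries lay between the controls. The log2 fold change of -0.69 had a standard error of 1.38 (edgeR, unadjusted p = 0.632, adjusted p = 0.999), so the error exceeded the value itself. The Wilson intervals of the controls, 0.0731 to 0.311 and 0.557 to 1.18 CPM, did not overlap. They again cover counting error only, and what set the spread between control pools was not tested. The log2 fold change of *Cldn5* was 0.86 without AAV-CTRL 2, -1.44 without AAV-CTRL 1, and -0.41 without AAV-mVEGF-C 1. With every library kept it was -0.33 with the replicate block, -0.34 with the crossed block, and -0.17 with limma-voom.

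The Tie receptors were both lower in the AAV-mVEGF-C libraries by reads. *Tek* had 59 and 78 reads in AAV-CTRL and 48 and 25 reads in AAV-mVEGF-C, or 1.27 and 2.34 CPM against 1.26 and 0.769 CPM. AAV-mVEGF-C 1 was below AAV-CTRL 1 by less than counting error. The log2 fold change of *Tek* was -0.82 with a standard error of 0.65 (edgeR, unadjusted p = 0.248, adjusted p = 0.999). This value was -1.16 without AAV-CTRL 1, -0.38 without AAV-CTRL 2, and -0.54 without AAV-mVEGF-C 2. In TPM the groups overlapped, with 0.226 and 0.411 in AAV-CTRL against 0.19 and 0.323 in AAV-mVEGF-C.

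*Tie1*, the partner receptor, had 121 and 103 reads in AAV-CTRL and 81 and 64 reads in AAV-mVEGF-C. These were 2.61 and 3.09 CPM against 2.13 and 1.97 CPM, and AAV-CTRL 2 did not stand far from AAV-CTRL 1 for this gene. The log2 fold change was -0.48 with a standard error of 0.43 (edgeR, unadjusted p = 0.312, adjusted p = 0.999). It was -0.55 without AAV-CTRL 1 and -0.41 without AAV-CTRL 2, and over all alternatives it ranged from -0.55 to -0.16.

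For the other surface genes the groups overlapped in CPM, *Plvap* only without TMM scaling. *Emcn* had 44 and 31 reads in AAV-CTRL and 45 and 14 reads in AAV-mVEGF-C, or 0.948, 0.93, 1.18, and 0.43 CPM. The 2 AAV-mVEGF-C libraries were thus the highest and the lowest, and the log2 fold change was -0.24 with a standard error of 0.85 (edgeR, unadjusted p = 0.79, adjusted p = 0.999). The sign of this value rested on AAV-mVEGF-C 2, since it was 0.29 without that library and -1.08 without AAV-mVEGF-C 1. It was -0.17 without AAV-CTRL 1 and -0.30 without AAV-CTRL 2. *Plvap* had 125 and 176 reads in AAV-CTRL and 107 and 69 reads in AAV-mVEGF-C, or 2.69, 5.28, 2.81, and 2.12 CPM. AAV-CTRL 2 was highest and the other 3 libraries lay close together. With TMM scaling the values became 2.79 and 5.13 in AAV-CTRL against 2.73 and 2.17 CPM in AAV-mVEGF-C, and in TPM they were 0.954 and 1.86 against 0.875 and 0.681, so on both of these scales *Plvap* was lower in both AAV-mVEGF-C libraries. Its log2 fold change was -0.68 with a standard error of 0.47 (edgeR, unadjusted p = 0.192, adjusted p = 0.999). Leaving out AAV-CTRL 2 gave -0.19, and leaving out AAV-CTRL 1 gave -1.05.

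*Egfl7* had 94 and 154 reads in AAV-CTRL and 103 and 96 reads in AAV-mVEGF-C, or 2.03, 4.62, 2.71, and 2.95 CPM. The controls were again the lowest and the highest libraries in CPM, whereas in TPM both AAV-mVEGF-C libraries (1.63 and 1.9) were below both controls (2.2 and 3.14). The log2 fold change was -0.21 with a standard error of 0.50 (edgeR, unadjusted p = 0.684, adjusted p = 0.999), and it became -0.66 without AAV-CTRL 1 and 0.42 without AAV-CTRL 2. It was -0.11 without AAV-mVEGF-C 1 and -0.32 without AAV-mVEGF-C 2. *Plvap* and *Egfl7* each meet a gene on the opposite strand. *Gtpbp3*, which overlaps *Plvap*, had 375 to 537 reads, and *Agpat2*, which overlaps the end of *Egfl7*, had 780 to 2293 reads. The kit keeps strand, but how the counting used strand is not given in the sources used here, so reads in the shared ends cannot be assigned with certainty.

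**Figure D1:**
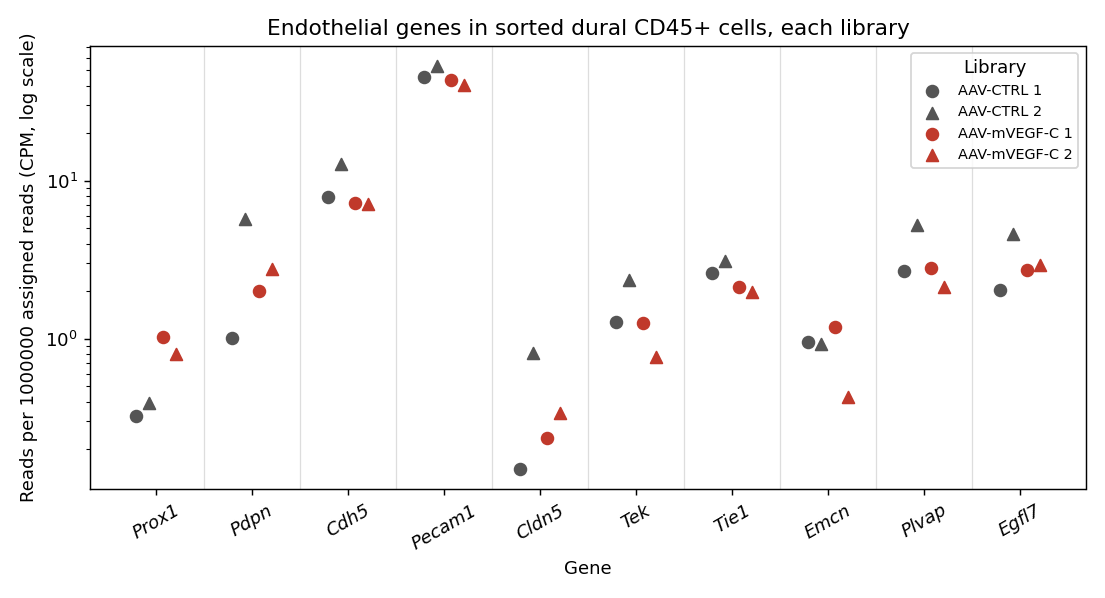
CPM (log axis) of the 10 endothelial genes in each library. Grey marks AAV-CTRL and red AAV-mVEGF-C, circles stand for library 1 and triangles for library 2. *Prox1* is higher in both AAV-mVEGF-C libraries (1.02 and 0.799 CPM) than in both controls (0.323 and 0.39 CPM), while AAV-CTRL 2 is the highest library in 8 of the 10 genes.

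In edgeR's quasi-likelihood test, 0 of the 10 genes passed the adjusted threshold of 0.05. The background was also 0, since 0 of the 19806 genes tested, 0%, passed it. At an unadjusted p under 0.05 there were 0 of 10 members against 523 of all genes, or 2.64%. DESeq2 called 0 of 10 members and 72 of 19038 genes, or 0.378%. Of the 10 log2 fold changes, 9 were below 0, against 49.6% of all genes, and their median was -0.47, against 0.0034 over all genes tested. In CPM, 4 members (*Cdh5*, *Pecam1*, *Tek*, and *Tie1*) were lower in both AAV-mVEGF-C libraries than in both controls, against 16.7% of all genes. *Prox1* alone was higher in both, against 15.4% of all genes. The 10 genes were chosen with earlier results of these data known, share the same libraries, and are not independent of one another. With bulk RNA, fewer cells of a type and less RNA per cell cannot be told apart.

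**Figure D2:**
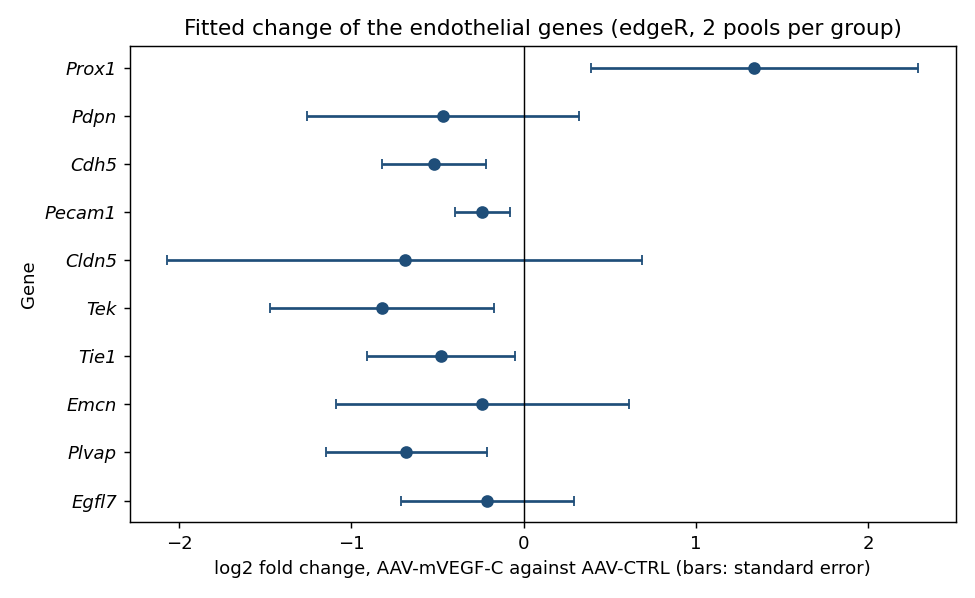
Fitted log2 fold change of AAV-mVEGF-C against AAV-CTRL for each endothelial gene, with bars of 1 standard error, from edgeR with 2 pools per group. *Prox1* lies at 1.34 and the other 9 genes between -0.82 and -0.21, and 0 of the 10 passed adjustment over all genes.

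The direction of several members rested on AAV-CTRL 2. This library was the highest of the 4 for 8 of the 10 genes in CPM, and AAV-mVEGF-C 1 was the highest for the other 2, *Prox1* and *Emcn*. The lowest library was AAV-mVEGF-C 2 for 6 genes and AAV-CTRL 1 for 4 genes. Summed over the members, the libraries reached 64.4 and 89.2 CPM in AAV-CTRL and 63.9 and 59.7 CPM in AAV-mVEGF-C. In TPM the sums were 27 and 28.2 in AAV-CTRL and 16.4 and 18.7 in AAV-mVEGF-C, with the controls close together. With *Pecam1* set aside, the sums were 18.9 and 36 CPM in AAV-CTRL and 20.6 and 19.2 CPM in AAV-mVEGF-C, so AAV-CTRL 1 resembled the AAV-mVEGF-C libraries.

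When AAV-CTRL 2 was left out, 6 of the 10 log2 fold changes were below 0, against 45.8% of all genes, and the median of the members was -0.18. In that fit 0 of 10 members had an unadjusted p under 0.05, against 30.7% of all genes. Against AAV-CTRL 1 alone, 4 members were lower and 4 higher in both AAV-mVEGF-C libraries, with 34.2% and 48% of all genes in these classes. When AAV-CTRL 1 was left out, 9 of 10 were below 0, against 50.4% of all genes, and the median was -0.72. Against AAV-CTRL 2 alone, 8 members were lower and 1 was higher in both AAV-mVEGF-C libraries, with 41.1% and 27% of all genes in these classes. Without AAV-CTRL 1, *Cdh5*, *Pdpn*, and *Plvap*, 3 of 10 members, had an unadjusted p under 0.05, against 8.09% of all genes.

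A ratio between genes of the same library does not depend on how libraries are scaled, so each member was set against *Cdh5*. *Prox1* reads per read of *Cdh5* were 0.0409 and 0.0305 in AAV-CTRL and 0.141 and 0.113 in AAV-mVEGF-C, a 4.61-fold range and the widest of the list. *Pdpn* followed with 0.128 and 0.451 against 0.274 and 0.39, a 3.52-fold range, and then *Cldn5* with 0.0191 and 0.0634 against 0.0325 and 0.0476, a 3.32-fold range. In both of these genes it was the controls that lay at the extremes.

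The other 6 members had narrower ranges. *Tie1* reads per read of *Cdh5* were 0.33, 0.242, 0.292, and 0.277 over the 4 libraries, a 1.36-fold range. *Plvap* ranged 1.38-fold, from 0.299 to 0.413, and *Pecam1* 1.43-fold, from 4.17 to 5.95. The ranges were 1.62-fold for *Egfl7*, 1.69-fold for *Tek*, and 2.68-fold for *Emcn*, where AAV-mVEGF-C 1 was highest at 0.162 and AAV-mVEGF-C 2 lowest at 0.0606. These ratios carry the counting error of both genes, which is largest for *Cldn5* and *Prox1*.

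**Figure D3:**
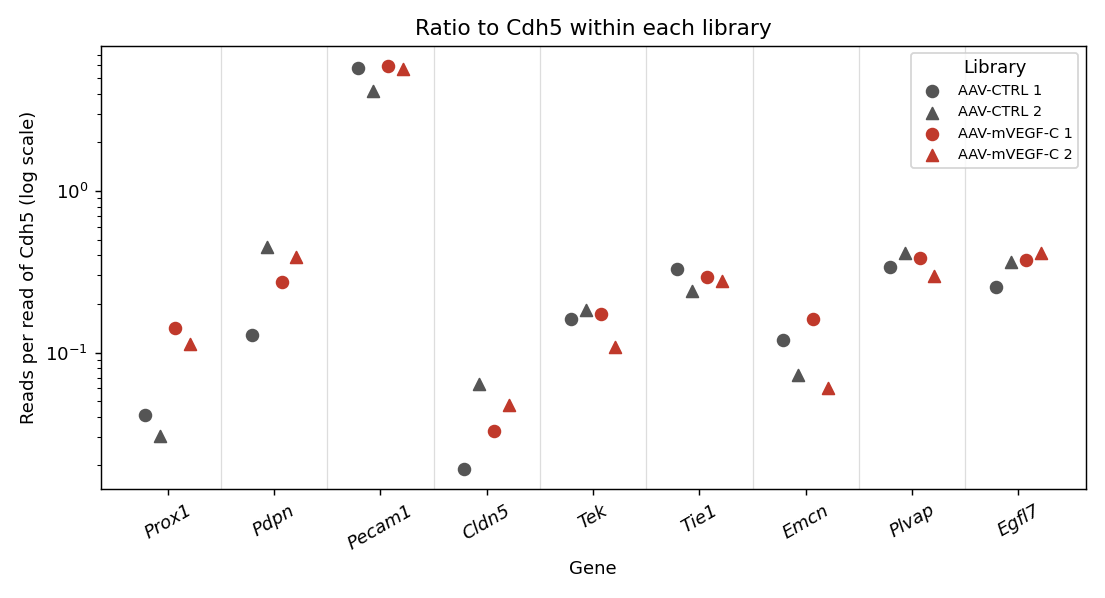
Reads of each gene per read of *Cdh5* in the same library (log axis), with symbols for the 4 libraries. *Tie1* and *Plvap* stay within 1.36-fold and 1.38-fold over the libraries, whereas *Prox1* spans 4.61-fold, with 0.141 and 0.113 in AAV-mVEGF-C above 0.0409 and 0.0305 in AAV-CTRL.

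For some members the read table and the TPM table ordered the libraries differently. The gene length implied by the quotient of CPM and TPM differed 2.75-fold over the libraries for *Emcn*, 2.64-fold for *Tek*, 1.65-fold for *Prox1*, and 1.63-fold for *Pecam1* and *Egfl7*. It differed by at most 1.1-fold for *Cdh5*, *Pdpn*, *Cldn5*, *Tie1*, and *Plvap*, and the median over 18268 genes was 1.13-fold. *Emcn* was highest in AAV-CTRL 2 by TPM, at 0.755 against 0.306 in AAV-CTRL 1, although both controls had nearly the same CPM, and the AAV-mVEGF-C libraries had 0.304 and 0.232 TPM. On the log2(TPM + 0.1) scale the log2 fold change was -0.69 for *Emcn* and -0.56 for *Egfl7*, larger in size than from reads, and -0.21 for *Pdpn*, -0.38 for *Cldn5*, and -0.22 for *Tek*, smaller in size than from reads. Counted in TPM, 6 members were lower and 1 was higher in both AAV-mVEGF-C libraries, against 28.5% and 8.92% of all genes, so TPM placed more of all genes in the lower class as well. In CPM with TMM scaling these counts were 5 and 1, against 15.5% and 16.5% of all genes.

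Other genes of endothelium, from a list of 32 of which 27 were tested, did not share 1 direction. Of these, 16 had a log2 fold change below 0 and 11 above, with a median of -0.16, and 0 passed adjustment. The median was -0.56 without AAV-CTRL 1, 0.54 without AAV-CTRL 2, and -0.25 without AAV-mVEGF-C 1. With every library kept it was 0.08 with limma-voom, 0.06 with the replicate block, and 0.05 with the crossed block. Its sign thus depended on the control library and on the model. The highest by TPM were *Icam2*, an adhesion molecule also found on leukocytes, *Calcrl*, the adrenomedullin receptor, and *Erg*, the ETS factor, with means of 9.66, 8.91, and 5.99 TPM. Their log2 fold changes were -0.01, -0.28, and 0.04, with standard errors of 0.47, 0.21, and 0.25. Unadjusted p-values under 0.05 were found for *Kdr* (log2 fold change -0.80, standard error 0.30), *Ramp2* (-0.91, 0.37), and *Aplnr* (-1.36, 0.55), genes named after their values were seen. These are 3 of 27 genes, against 2.64% of all genes. In CPM, 6 of the 27 were lower and 1 was higher in both AAV-mVEGF-C libraries, against 16.7% and 15.4% of all genes. The list was at 0 reads for 6 genes in AAV-CTRL 1, for 1 gene in AAV-CTRL 2, and for 0 genes in both AAV-mVEGF-C libraries.

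The VEGF receptors on these lists did not pass adjustment (edgeR, adjusted p = 0.999 for each), and differences between them were not tested. *Kdr*, which encodes VEGFR-2, had 7.93 and 9 CPM in AAV-CTRL and 4.42 and 5.29 CPM in AAV-mVEGF-C, and *Flt1*, which encodes VEGFR-1, had 9.03 and 9.54 against 12.3 and 7.63 CPM. *Flt4*, the gene of the VEGF-C receptor VEGFR-3, had 38 and 61 reads in AAV-CTRL and 56 and 52 reads in AAV-mVEGF-C, with a log2 fold change of 0.23 and a standard error of 0.65.

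Among 9 tested genes of a list of 10 further lymphatic genes, 7 had a log2 fold change below 0 and 2 above, with a median of -0.26, and 0 had an unadjusted p under 0.05. Their median was -0.49 without AAV-CTRL 1, 0.12 without AAV-CTRL 2, and -0.09 without AAV-mVEGF-C 1. In CPM, 0 of these genes were lower and 0 were higher in both AAV-mVEGF-C libraries than in both controls, against 16.7% and 15.4% of all genes. The highest by TPM were *Gata2*, a factor of lymphatic valves and of blood progenitors, *Itga9*, an integrin of lymphatic valves and neutrophils, and *Reln*, a protein secreted by LECs. Their means were 13.1, 11.5, and 2.36 TPM and their log2 fold changes -0.26, -0.11, and -0.62, with standard errors of 0.23, 0.24, and 0.45. *Lyve1*, a hyaluronan receptor shared by LECs and dural macrophages, had 175 and 245 reads in AAV-CTRL and 176 and 169 reads in AAV-mVEGF-C.

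Of 7 genes that act with the Tie receptors, 5 had a log2 fold change below 0 and 2 above, with a median of -0.14 (-0.66 without AAV-CTRL 1, 0.16 without AAV-CTRL 2, and -0.35 without AAV-mVEGF-C 2). *Dok2*, an adaptor of TIE2 and of leukocyte receptors, *Foxo1*, the transcription factor restrained by TIE2 signaling, and *Angpt1*, the activating ligand, were highest, at 15.9, 6.03, and 1.19 TPM. They had log2 fold changes of 0.02, 0.10, and -0.08, with standard errors of 0.19, 0.33, and 0.35. *Ptprb*, the phosphatase of endothelial cells that dephosphorylates TIE2, had 6.46 and 13.5 CPM in AAV-CTRL and 5.81 and 4.21 CPM after AAV-mVEGF-C. Its log2 fold change of -0.99 with a standard error of 0.40 had an unadjusted p of 0.0498 in edgeR and did not pass adjustment (adjusted p = 0.999), 1 of 7 genes against 2.64% of all genes, and it was named after its p was seen.

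Genes of other cells that are not leukocytes varied over the same libraries. For 14 tested fibroblast genes the median log2 fold change was -0.78, with 13 below 0 and 1 above. In CPM, 8 of the 14 were lower and 0 were higher in both AAV-mVEGF-C libraries than in both controls, against the 16.7% and 15.4% of all genes given above. The median was -1.09 without AAV-CTRL 1, -0.30 without AAV-CTRL 2, and -0.48 without AAV-mVEGF-C 1. Their summed levels were 223 and 468 TPM in AAV-CTRL and 160 and 240 TPM in AAV-mVEGF-C, so AAV-CTRL 2 was highest here as well. *Mgp*, *Col1a2*, and *Col1a1*, an inhibitor of calcification and the collagen I chains, were highest at 117, 31.6, and 30.6 TPM. Their log2 fold changes were -0.43, -0.92, and -0.97 with standard errors of 0.46, 0.32, and 0.29. At an unadjusted p under 0.05 there were 6 of 14 fibroblast genes, against 2.64% of all genes, and 0 passed adjustment.

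Mural cell genes, from the pericytes and smooth muscle around vessels, gave a median of -0.42 over 10 tested genes, with 8 below 0. It was -0.53 without AAV-CTRL 1, -0.04 without AAV-CTRL 2, -0.27 without AAV-mVEGF-C 1, and -0.66 without AAV-mVEGF-C 2. Their sums were 11.1 and 19.4 TPM against 8.12 and 10.3 TPM, and *Acta2*, *Pdgfrb*, and *Tagln* led at 3.54, 2.66, and 2.31 TPM. Osteoblast lineage genes, known from bone-forming cells, had a median of -0.87 over 7 tested genes, with 4 below 0 and 3 above, and of -1.20 without AAV-CTRL 1, -0.36 without AAV-CTRL 2, and -0.28 without AAV-mVEGF-C 2. Of these 7, *Alpl* (-0.87, standard error 0.32) and *Bglap2* (-2.56, 0.97), the latter named after its values were seen, had an unadjusted p under 0.05, against 2.64% of all genes. The summed levels of the list were 19.5 and 30.2 TPM against 11.7 and 12.6 TPM, with *Alpl*, *Bglap*, and *Ifitm5* at 9.9, 3.07, and 3.06 TPM. AAV-CTRL 2 was highest in both lists, as in the members without *Pecam1* (6.15 and 12.1 TPM against 5.66 and 6.04 TPM).

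Platelet genes had a median of -0.47 over 9 tested genes, with 7 below 0 (-0.37 without AAV-CTRL 1 and -0.72 without AAV-CTRL 2). They summed to 59.2 and 93.7 TPM in AAV-CTRL and 38.2 and 63.7 TPM in AAV-mVEGF-C. *Pf4*, *Itga2b*, and *Gp1ba* led this list at 56.8, 3.14, and 1.09 TPM. *Pf4* carried the sum, and whether its RNA came from platelets or from other sorted cells was not tested. The other 11 genes reached 8.41 and 6.78 TPM in AAV-CTRL and 7.37 and 5.03 TPM in AAV-mVEGF-C, with AAV-CTRL 1 highest. Stem and progenitor genes varied less, with sums of 61.1 and 57.7 TPM against 60.6 and 49.7 TPM and a median of -0.12 over 7 genes (-0.05 without AAV-CTRL 1 and 0.02 without AAV-CTRL 2). *Kit*, *Flt3*, and *Hlf* led at 28.1, 12.4, and 6.64 TPM, and *Kit* also marks mast cells. The leukocyte list was led by *S100a8*, *Cd74*, and *Lyz2* at 4532, 3321, and 2036 TPM, with 4 of 13 genes below 0. At an unadjusted p under 0.05 there were 0 mural, 0 platelet, 0 stem and progenitor, and 0 leukocyte genes. The genes lower and higher in both AAV-mVEGF-C libraries in CPM numbered 4 and 0 of 10 mural, 3 and 0 of 7 osteoblast lineage, 4 and 1 of 9 platelet, 1 and 1 of 7 stem and progenitor, 0 and 1 of 13 leukocyte, and 1 and 0 of 7 Tie pathway genes, against the same 16.7% and 15.4%. The part of fibroblast, mural, bone, platelet, or progenitor RNA in the values of the endothelial genes was not tested.

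**Figure D4:**
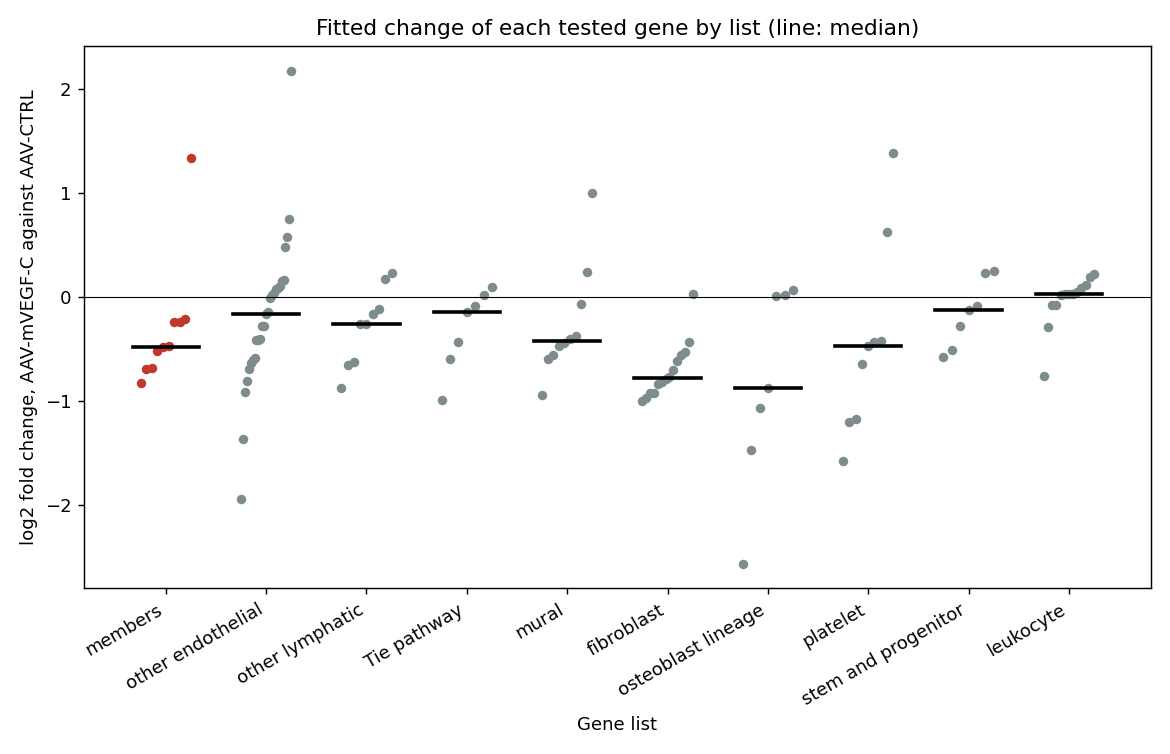
Fitted log2 fold change of AAV-mVEGF-C against AAV-CTRL for each tested gene, by list, with a black line at the median of each list and the 10 endothelial genes (labelled members) in red. The median was -0.47 for these genes, -0.16 for other endothelial genes, -0.78 for fibroblast genes, and 0.03 for leukocyte genes.

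The genes whose profile over the 4 libraries lay closest to the median profile of the members were *Matn2*, *Snapc2*, *Adam11*, *Lrp12*, and *Pura*, at Euclidean distances of 0.0382, 0.0386, 0.0459, 0.0496, and 0.0545. Profiles were centered log2(CPM + 1) values. The median profile of the members was -0.12 and 0.46 in the AAV-CTRL libraries and -0.10 and -0.18 in the AAV-mVEGF-C libraries. *Matn2*, which encodes an extracellular matrix protein, had -0.12, 0.43, -0.12, and -0.19 in the same order. With 4 libraries, of which 1 sets the profile, this likeness is a description of AAV-CTRL 2.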

How the data were processed

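Total RNA of sorted dural CD45+ cells had been made into libraries with a stranded pico-input kit, with 2 libraries per group. The authors deposited estimated counts per gene, without normalization, of which 8.18% had decimals, and TPM for the same genes. The submitters' processing notes name FastQC, Trimmomatic, DRAGEN, Picard, and the build mm10. The annotation is not given in the sources used here, and 54349 of 55401 identifiers occurred with the same version in GENCODE M21.

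Counts were rounded and tested with edgeR 4.0.16 (R 4.3.3; glmQLFit and glmQLFTest at their defaults, TMM, filterByExpr) over 19806 genes and 4 libraries without covariates, at a Benjamini-Hochberg adjusted p of 0.05. The standard error is the size of the log2 fold change divided by the square root of F. CPM in the text are reads per 1000000 assigned reads. Wilson intervals at 95% and the floor of 3 reads cover counting error only. In the main test, p-values set the difference between groups against the spread between pools of a group, estimated with information shared over genes. The edgeR, DESeq2, and voom scripts were tested on simulated data.

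The alternatives were DESeq2 1.42.0, limma 3.58.1 (voom, and TPM with pseudocounts of 1 and 0.1), RLE factors, no filter, at least 10 reads in every library, a replicate block, and each library left out. The members and lists were chosen with earlier results of these data known. Named were all 10 members, the 3 genes of each other list with the highest mean TPM, genes of adjusted p under 0.05 (0 found), defining genes at 0 in all libraries (0 found), and the 5 closest profiles. Genes named outside this rule were *Ptprc*, *Kdr*, *Ramp2*, *Aplnr*, *Ptprb*, *Bglap2*, *Flt1*, *Flt4*, *Lyve1*, and the overlapping genes.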

Additional observations from a re-analysis of the deposited data

How the results depend on the processing

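No member of the list passed an adjusted p of 0.05 under any of the 13 alternatives run, and the lowest adjusted p was 0.195. Of 129 member values under these alternatives, 124 kept their direction and side of the threshold and 5 changed direction: *Pdpn* with limma-voom (0.06), *Pdpn* (1.18), *Cldn5* (0.86), and *Egfl7* (0.42) without AAV-CTRL 2, and *Emcn* (0.29) without AAV-mVEGF-C 2. With each library left out in turn, the log2 fold change ranged from -1.22 to 1.18 for *Pdpn*, -1.44 to 0.86 for *Cldn5*, -0.66 to 0.42 for *Egfl7*, and -1.08 to 0.29 for *Emcn*. The median of the members was -0.50 to -0.24 under the 9 alternatives with every library and -0.72 to -0.18 with a library left out. The median of the other endothelial genes, -0.16, became 0.08 with limma-voom, 0.06 with the replicate block, 0.05 with the crossed block, and -0.56 to 0.54 with a library left out (-0.56 without AAV-CTRL 1, 0.54 without AAV-CTRL 2). The number of genes called, 0 with edgeR, was 72 with DESeq2, 268 without a filter, and 0 to 1798 with a library left out (212 without AAV-CTRL 1, 1798 without AAV-CTRL 2, 2 without AAV-mVEGF-C 1). Where 1 library of a group was left, the edgeR fit assumed that it varies like the other group. The causes were not tested.

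The labels number the control pools 1 and 2 by experiment while their columns are numbered 2 and 3 (the AAV-mVEGF-C numbers match). Over genes, deviations of same-numbered pools from their group means correlated at r = -0.134 in edgeR log2 CPM and -0.0183 in log2(CPM + 1). The crossed pairing gives the same size with the opposite sign, so pairing is not settled. The replicate block gave 11 called genes, and the crossed block, chosen after seeing the data, 54, with 0 members called in both. Depth limits *Cldn5* and *Prox1* most, which had 7 to 27 and 13 to 39 reads per library.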
